A study of Homo sapiens with 44 samples.

Results

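The nuclear-encoded subunits of respiratory chain complexes I to IV were followed in 4 human acute myeloid leukemia (AML) cell lines in which the kinase GSK3A or its paralog GSK3B was targeted with short hairpin RNAs. The genes were taken by symbol: those starting with NDUFA, NDUFB, NDUFC, NDUFS or NDUFV without the assembly factors named NDUFAF, the genes SDHA to SDHD, and those starting with UQCR, COX4I, COX5, COX6, COX7 or COX8. Of 12165 genes with a probe set of their own, 54 matched by letters. One of these, NDUFB2-AS1, is an antisense RNA and no subunit, which left 53 genes: 31 of complex I, 3 of complex II, 6 of complex III and 13 of complex IV. For the 14 genes with several probe sets, the brightest on average over the 44 arrays was used. SDHB, NDUFA4, NDUFA4L2 and COX4I2 are not analysed here.

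The lines HL-60, MOLM-14, THP-1 and U937 are established ones grown from patients with myeloid leukemia or a related malignancy. Each line received a scrambled hairpin (shControl, 3 arrays), the GSK3A hairpins shGSK3A_5 and shGSK3A_6 (2 arrays each), or the GSK3B hairpins shGSK3B_1 and shGSK3B_2 (2 arrays each). All cells, controls included, were infected and kept in puromycin at 1 µg per mL from 48 h after infection, and RNA was taken 48 h later. Replicates are called biological in the labels, with nothing on separate infections, so p-values measure the spread between these arrays. The labels number the array plate's columns: control replicates 1 and 2 and the first replicate of each hairpin lay in columns 1 to 6, and the remaining arrays in columns 7 to 11.

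The respiratory chain sits in the inner mitochondrial membrane. Complex I (NADH dehydrogenase) and complex II (succinate dehydrogenase) pass electrons to ubiquinone, complex III passes them to cytochrome c, and complex IV (cytochrome c oxidase) passes them to oxygen, while complexes I, III and IV pump the protons that drive ATP synthesis. A few catalytic subunits are encoded by mitochondrial DNA, and the many nuclear-encoded ones measured here include both core subunits with redox centres and small accessory subunits. Many AML cells are known for their reliance on oxidative phosphorylation.

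Values are deposited intensities on a linear scale, and changes are differences of quantile-normalized log2(intensity + 16) with the standard error of the fit. A gene was called changed when its Benjamini-Hochberg adjusted p in limma, over all 12165 genes, was under 0.05. Array medians ran from 19.0 to 22.9, and the number of arrays limits the precision. The GSK3B probe set fell by 1.56 ± 0.05 on the log2 scale with the GSK3B hairpins (limma adjusted p = 8.12e-19), and its value with the GSK3A hairpins was 0.0043 ± 0.05. The GSK3A probe set was dim, at 31.3 to 57.8 across control and GSK3A hairpin arrays, and fell by only 0.09 ± 0.03 with its own hairpins (limma adjusted p = 0.0176). By line it passed in HL-60 alone (-0.20 ± 0.05; limma adjusted p = 0.0139), and the adjusted p in the other lines lay between 0.460 and 0.996. It stood at 108% of control with shGSK3A_5 in THP-1, at 100.4% with shGSK3A_5 in MOLM-14 and at 98.5% with shGSK3A_6 in U937, each overlapping the control arrays. The other hairpin of each of these lines lay below all its control arrays. This was shGSK3A_6 in THP-1 (84.9%) and MOLM-14 (94.8%), and shGSK3A_5 in U937 (86.4%). In HL-60 both did, at 82.5% with shGSK3A_5 and 85.0% with shGSK3A_6. A GSK3A knockdown at the RNA level was thus called in 1 of 4 lines (the protocol mentions protein blots as its check), and "GSK3A hairpin" below means the arrays so labelled. Of 10 myeloid markers 8 were measured and 4 had a control mean above 100 in each line; CD68, CSF3R and SPI1 did not in any, nor did ITGAM in HL-60, MPO in THP-1 and U937, or FCER1G in MOLM-14. Of 5 erythroid, 6 T cell, 5 B cell and 6 epithelial or stromal markers measured, 0 had a control mean above 100 in any line, and the control means of each list summed to 46.9 to 60.7. The summed myeloid markers ran from 4928 to 5237 in THP-1 control arrays and from 5482 to 5754 in its GSK3A hairpin arrays, against 8605 to 9200 and 8051 to 8464 in HL-60. The same sums were 2526 to 2945 and 2821 to 3944 in MOLM-14 and 2010 to 2114 and 2317 to 2637 in U937. Their part in the results was not tested. In these bulk samples, fewer cells of a kind and less RNA per cell cannot be told apart.

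Promoter sequence is shown for genes named below, because these genes share known regulators. NRF1, factors of the ETS family (among them GABP) and YY1 are established activators of respiratory chain genes. In RefSeq windows of GRCh38.p14 that reach from 250 bases before to 50 bases after an annotated start, 46 of the 53 genes had at least 1 window. The NRF1 motif (GCGC, any 1 base, then TGCGC) was found, on either strand, in 8 of the 46 genes (17.4%, against 10.9% of 9711 measured genes with a window). The ETS motif CCGGAAG was in 13 (28.3% against 17.8%), and the YY1 motif AAGATGG in 11 (23.9% against 9.0%). None of the 3 motifs was in the windows of 18 of the 46 genes, among them all 4 windows of NDUFC1 and both of COX7A2L. Over windows rather than genes, the shares were 14.5%, 23.6% and 20% of 55 windows of these genes, 7.94%, 13.1% and 6.56% of 14283 windows of measured genes, and 5.78%, 10.3% and 5.84% of all 35114 windows. The stretches are the 120 bases before a start, outside every annotated gene, printed 5′ to 3′ on the gene's strand. Capitals mark the matches, all of which are the motifs read on the opposite strand: NRF1 in NDUFA3 and SDHA, ETS in COX8A and YY1 in COX7C. COX7A2L, the gene that rose most steadily below, is shown as an example without a match.
NDUFA3 (chr19:54102735-54102854, plus strand): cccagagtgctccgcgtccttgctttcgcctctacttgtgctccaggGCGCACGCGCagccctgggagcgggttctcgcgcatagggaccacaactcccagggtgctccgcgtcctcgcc
SDHA (chr5:218200-218319, plus strand): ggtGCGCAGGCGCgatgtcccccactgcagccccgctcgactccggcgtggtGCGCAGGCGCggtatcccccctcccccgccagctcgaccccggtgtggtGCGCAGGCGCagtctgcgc
COX8A (chr11:63974500-63974619, plus strand): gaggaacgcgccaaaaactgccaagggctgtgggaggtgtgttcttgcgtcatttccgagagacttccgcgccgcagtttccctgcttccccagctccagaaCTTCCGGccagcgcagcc
COX7C (chr5:86617821-86617940, plus strand): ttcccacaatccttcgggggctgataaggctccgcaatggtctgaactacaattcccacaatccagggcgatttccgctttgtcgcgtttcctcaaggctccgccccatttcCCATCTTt
COX7A2L (chr2:42368958-42369077, minus strand): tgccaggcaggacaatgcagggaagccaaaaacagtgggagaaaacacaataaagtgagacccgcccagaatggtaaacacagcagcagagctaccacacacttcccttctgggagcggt

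The first comparison asked how the subunit genes differ between the lines with the scrambled hairpin and puromycin, without a targeting hairpin. Nearly all did: 51 of 53 passed the moderated F-test of limma over the control arrays (67.8% of all genes did), the exceptions being COX7A1, the muscle form of a complex IV subunit, and NDUFS4, an accessory subunit of complex I. COX7A1 was close to the floor of the array, at 4.70 to 7.74 on all arrays. COX6A2, the muscle form of subunit VIa, was dim, at 23.1 to 40.3, but above the array medians of 19.0 to 22.9. Against the mean of the other lines, 29 subunit genes were higher and 6 lower in HL-60 (47.9% of all genes called), 15 higher and 25 lower in THP-1 (49.5%), 21 higher and 16 lower in MOLM-14 (41.3%), and 13 higher and 27 lower in U937 (46.7%). The median difference of the 53 genes was highest in HL-60 (0.20), near 0 in MOLM-14 (-0.01) and lowest in U937 (-0.15) and THP-1 (-0.12), where the medians of all genes lay between -0.02 and 0.02.

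In HL-60, 19 of 31 complex I genes were higher and 1 lower, with a median of 0.32. Such a shift was not particular to complex I among the gene lists described below. Of 50 mitochondrial ribosomal proteins 31 were higher and 4 lower in HL-60 controls (median 0.33). Of 17 import proteins and chaperones 10 were higher and 3 lower (0.33), whereas 15 regulators of mitochondrial biogenesis had 6 higher and 3 lower (-0.02). NDUFV2, a core subunit with an iron-sulfur cluster, read 1524, 1574 and 1610 on the HL-60 control arrays and between 792 and 958 on those of the other lines, with no overlap. Its difference of 0.84 ± 0.04 passed the test (limma adjusted p = 6.65e-16). NDUFA10, an accessory subunit of the membrane arm, was 0.96 ± 0.05 higher in HL-60 (adjusted p in limma = 3.07e-14). The complex IV genes of HL-60 were split, 6 higher and 2 lower, and the lower ones were COX4I1 (-0.38 ± 0.05) and COX5A (-0.26 ± 0.04), which join early in the assembly of the enzyme.

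THP-1 was set apart by NDUFA9, an accessory subunit at the joint between the arms of complex I. Its intensity was 166, 170 and 171 on the THP-1 control arrays. It lay between 736 and 758 in HL-60, between 586 and 672 in U937 and between 527 and 573 in MOLM-14. THP-1 was thus below every other line without overlap, with a difference of -1.83 ± 0.05 from their mean (3.56-fold lower; limma adjusted p = 4.63e-22). The other THP-1 differences were smaller: NDUFAB1, the mitochondrial acyl carrier protein, was lower by -0.48 ± 0.04 and the core subunit NDUFS7 by -0.75 ± 0.07. COX7A2, the widely expressed form of subunit VIIa, was 0.69 ± 0.06 higher there. Lower values in THP-1 controls were not particular to the subunit genes. Of 50 mitochondrial ribosomal proteins 38 were lower and 0 higher (median -0.44). Of 17 import proteins and chaperones 16 were lower and 0 higher (-0.64). Of 15 regulators of mitochondrial biogenesis 7 were lower and 3 higher (-0.34).

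U937 had the lowest levels of 3 genes from different complexes. NDUFA10 read 175, 185 and 199 there, below the 324 to 349 of THP-1, the 425 to 483 of MOLM-14 and the 577 to 630 of HL-60, an order in which no neighbours overlapped. COX7A2 read 1035, 1078 and 1086 in U937 and at least 1919 on every other control array (-1.10 ± 0.06). UQCRQ, a small subunit of complex III, read 517, 559 and 562 against at least 833 elsewhere (-0.85 ± 0.05). COX5A went the opposite way and was highest in U937, at 4032 to 4390 against 2547 to 3257 in the other lines (0.55 ± 0.04). In MOLM-14 all 3 complex II genes were higher than in the other lines, SDHA by 0.28, SDHD by 0.28 and SDHC by 0.47, and COX7A2L was higher by 0.52 ± 0.06, while NDUFA6 of complex I was lower by -0.62 ± 0.07. The order of the lines thus changed from gene to gene, and no line was high or low in all 4 complexes.

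**Figure D1:**
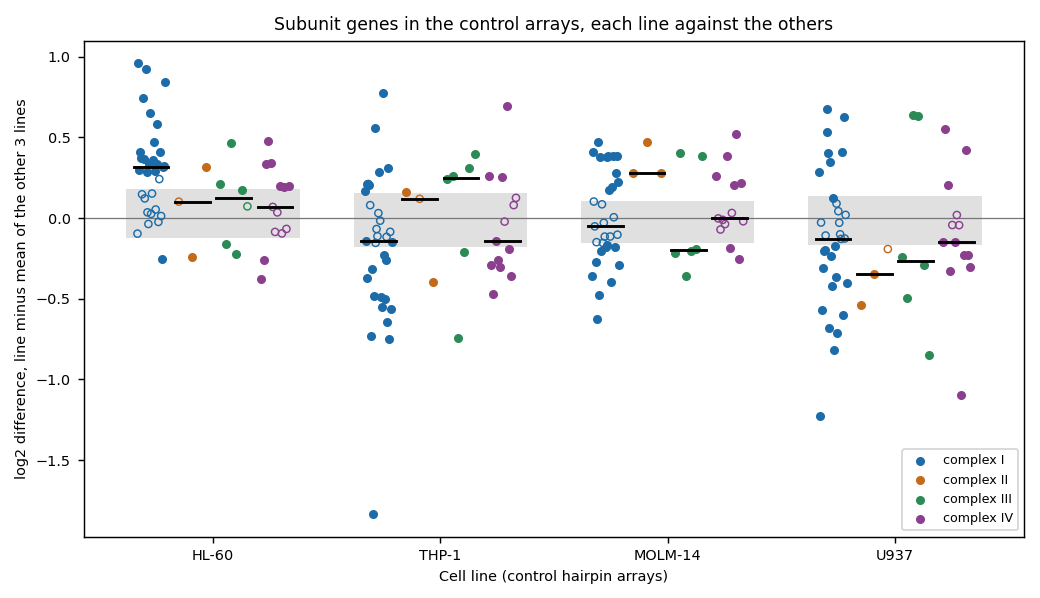
Difference of each subunit gene between a line and the mean of the other 3 lines in the control arrays (y axis, log2; 3 arrays per line), by line and complex. Filled points passed the test in limma, open points did not, black bars are medians of a complex and the grey band holds the middle of all 12165 genes from lower to upper quartile. The lowest point is NDUFA9 in THP-1 at -1.83, and the complex I median is highest in HL-60 at 0.32.

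With the GSK3A hairpins, the subunit genes did not move as a group. Over the 4 lines 11 of 53 passed the test in limma, 7 higher and 4 lower, which is 20.8% where 21.0% of all genes passed. The median change of the 53 genes was 0.0028 and that of all genes -0.00011, and single genes ran from -0.42 to 0.24. By complex, 5 genes rose and 3 fell among 31 of complex I, 1 fell of 3 in complex II, none of 6 passed in complex III, and 2 of 13 rose in complex IV. The split of directions depended on the scaling: it was 5 higher and 6 lower with median scaling and 6 higher and 5 lower with no further normalization. With the plate columns as a block within lines, 17 passed (33.2% of all genes). Within columns 1 to 6 alone 6 passed, and within columns 7 to 11 alone 0 (8 at an unadjusted p under 0.05), where each target and line had 2 hairpin arrays and 1 control array. Without HL-60, 4 passed, and 6 did with a random block of line and construct, which estimates the correlation between arrays of a group. For the fits within columns, without HL-60 and with the random block, the shares of all genes are not given here. Those counts therefore cannot be read as particular to the subunit genes. The calls of COX7A2L, NDUFB1 and NDUFC1 were the 3 of the 11 that held without any single line.

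Among the accessory subunits of complex I, NDUFC1 had the largest change, and it came from 1 hairpin. In HL-60 it read 1835, 1931 and 2000 on control arrays and 833 and 850 with shGSK3A_6. THP-1 had 2540, 2729 and 2810 against 1577 and 1590. MOLM-14 had 1623, 1640 and 2008 against 839 and 980, and U937 1192, 1330 and 1348 against 704 and 707. Every shGSK3A_6 array was thus below every control array of its line. With shGSK3A_5 the intensities were 2026 and 2033 in HL-60, 1684 and 1891 in MOLM-14, 1289 and 1370 in U937 and 2700 and 2721 in THP-1, inside or just above the controls' range. Over the lines NDUFC1 fell by 0.90 ± 0.06 on the log2 scale with shGSK3A_6 (limma adjusted p = 6.31e-12; 1.86-fold lower), whereas the value with shGSK3A_5 was 0.05. The difference between the hairpins, which uses no control array, was 0.95 ± 0.06 (limma adjusted p = 7.9e-12). By line the shGSK3A_6 change was -1.14 in HL-60, -0.84 in MOLM-14, -0.83 in U937 and -0.78 in THP-1, and each passed the test; with either GSK3B hairpin it lay between -0.07 and 0.06. The mean over both GSK3A hairpins, -0.42 ± 0.05, thus joins a fall with one and no called change with the other. NDUFC1 has 1 probe set on the array.

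COX7A2L, which is related to subunit VIIa and is known for joining complexes III and IV into supercomplexes, rose with both GSK3A hairpins. In HL-60 it read 822, 863 and 872 on control arrays, 1005 and 1040 with shGSK3A_5 and 990 and 1012 with shGSK3A_6. The THP-1 arrays held 741, 824 and 861, then 921 and 938, then 946 and 967. Those of MOLM-14 held 1084, 1145 and 1167, then 1224 and 1243, then 1257 and 1382, and those of U937 758, 812 and 869, then 990 and 1087, then 942 and 1180. All GSK3A hairpin arrays were above all control arrays in 4 of 4 lines. It was the only one of the 53 genes with this order in 3 or more lines, which 1.79% of all genes had. Over the lines it changed by 0.24 ± 0.04 (1.18-fold higher; limma adjusted p = 8.38e-06), with 0.22 ± 0.04 for shGSK3A_5 and 0.26 ± 0.04 for shGSK3A_6. It passed in U937 (0.35 ± 0.07) and HL-60 (0.24 ± 0.07). With shGSK3B_2 it rose by 0.15 ± 0.04 (limma adjusted p = 0.0312), a call lost without HL-60 (0.16), THP-1 (0.14) or MOLM-14 (0.15). That call was also lost with a pseudocount of 1, and when any of 10 of the 44 arrays was left out. With the GSK3A hairpins it stood 0.15 ± 0.03 above the GSK3B hairpins (limma adjusted p = 0.00138). Its plate column difference was -0.12 in MOLM-14 and 0.18 in U937, and with the plate columns as a block the GSK3A change was 0.24. Within columns 7 to 11 alone it kept its direction and did not pass.

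**Figure D2:**
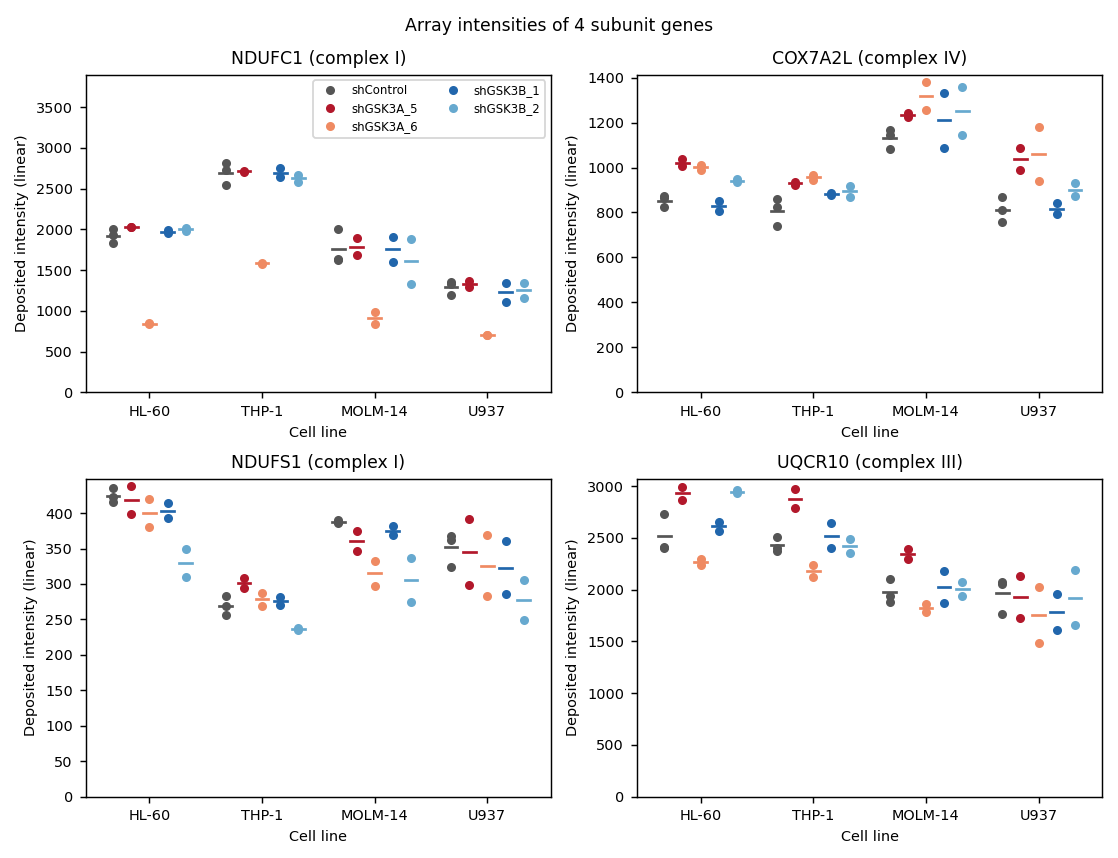
Deposited intensity (y axis, linear, from 0) of NDUFC1, COX7A2L, NDUFS1 and UQCR10 on each array, by cell line and construct; points are arrays (3 for the control and 2 for each hairpin in a line) and bars are their means. NDUFC1 is low with shGSK3A_6 in all 4 lines, COX7A2L lies above the controls with both GSK3A hairpins, NDUFS1 has its lowest mean with shGSK3B_2 in each line, and UQCR10 is higher with shGSK3A_5 than with shGSK3A_6.

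Of the other accessory subunits of the complex I membrane arm, NDUFB1 rose by 0.19 ± 0.04 (limma adjusted p = 0.000262). It read 1545, 1608 and 1693 on HL-60 control arrays and 1905 to 1925 with the GSK3A hairpins, and in THP-1 1999, 2023 and 2210 against 1951 to 2332. The groups were apart in HL-60 and overlapped in THP-1. NDUFB8 rose by 0.14 ± 0.03 (adjusted p = 0.00419), led by THP-1, where control arrays held 970, 974 and 1014, shGSK3A_5 arrays 1223 and 1241, and shGSK3A_6 arrays 1097 and 1103. Its other probe sets, dimmer ones, had values of 0.08 and 0.06, and without THP-1 the call was lost (0.11). NDUFA3 rose by 0.20 ± 0.06 (adjusted p = 0.00948), and its largest change was in MOLM-14, with 859, 919 and 1150 on control arrays and 1111 to 1337 with the GSK3A hairpins, a line in which the groups overlapped. Without HL-60 (0.22) or MOLM-14 (0.14) it did not pass. NDUFB6 fell by 0.13 ± 0.04 on the log2 scale (adjusted p = 0.0145), from 557 to 568 down to 495 to 540 in HL-60, from 417 to 432 down to 360 to 415 in U937 and from 382 to 437 down to 325 to 380 in MOLM-14. It was the only gene of the 53 with all GSK3A hairpin arrays below all control arrays in 3 lines (1.19% of all genes). Its other, dimmer probe set changed by 0.16 in the opposite direction, so the probe sets of NDUFB6 disagree in direction. The call of NDUFB6 was lost with the random block, without HL-60 (-0.13) and without U937 (-0.12). NDUFA10 fell by 0.10 ± 0.03 (adjusted p = 0.0226), with 577 to 630 on HL-60 control arrays and 516 to 548 with the GSK3A hairpins, which did not overlap, but in MOLM-14 with shGSK3A_5 it was 0.15 above control. Its call was lost without either of 2 of the 44 arrays, with the replicate block (-0.07), with the random block, without HL-60 (-0.07) and without THP-1 (-0.08).

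In the peripheral arm of complex I, which takes up NADH, the accessory subunit NDUFA2 rose by 0.15 ± 0.04 (limma adjusted p = 0.0111). It read 1064, 1101 and 1118 on HL-60 control arrays and 1177 to 1209 with the GSK3A hairpins, which did not overlap, and its call was lost without HL-60 (0.16). NDUFA13, also called GRIM-19, is an accessory subunit that spans the membrane and is known besides as a cell death regulator. It had a change of 0.12 ± 0.04 at the very edge of the threshold (adjusted p = 0.0499), and the call was lost when any of 35 of the 44 arrays was left out. None of the core subunits NDUFS1, NDUFS3, NDUFS7, NDUFS8, NDUFV1 and NDUFV2 passed for the GSK3A hairpins over the lines.

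In complex II the flavoprotein SDHA fell by 0.10 ± 0.03 (limma adjusted p = 0.027), a call lost when any of 8 of the 44 arrays was left out. It passed with shGSK3A_5, at -0.16 ± 0.04, and not with shGSK3A_6, but the difference between the hairpins, -0.12 ± 0.04, did not pass (adjusted p = 0.0682). HL-60 control arrays read 362, 371 and 382 and shGSK3A_5 arrays 298 and 309, while MOLM-14 read 387, 402 and 419 against 293 and 332. In THP-1 the ranges overlapped. The call over the lines was also lost with the replicate block (-0.08) and the random block, without HL-60 (-0.09) and without MOLM-14 (-0.06). SDHC and SDHD, the membrane anchors, had values of 0.07 and -0.06 and did not pass. In the printed stretches SDHA has 3 matches of the NRF1 motif and NDUFA3 has 1. NDUFA3 also has a YY1 motif elsewhere in its window. SDHA fell and NDUFA3 rose, and a link between motifs and changes was not tested. In complex IV COX7C, a small subunit, rose by 0.12 ± 0.04 (adjusted p = 0.0171), with 2315, 2418 and 2830 on MOLM-14 control arrays and 2795 to 2921 with the GSK3A hairpins, which overlapped. This call was lost with median scaling (0.09) and the random block, without HL-60 (0.14) and without MOLM-14 (0.07). The widely expressed isoforms COX4I1, COX6A1 and COX7A2 had values of -0.02, -0.0031 and 0.0028, none of which passed.

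UQCR10, a small subunit of complex III, differed between the GSK3A hairpins, while their mean, 0.02 ± 0.05, did not pass. In HL-60 it read 2404, 2410 and 2729 on control arrays, 2868 and 2995 with shGSK3A_5 and 2236 and 2300 with shGSK3A_6. For THP-1 the values were 2374, 2402 and 2506, then 2784 and 2971, then 2126 and 2237, and for MOLM-14 1878, 1937 and 2103, then 2293 and 2393, then 1782 and 1859. In these 3 lines shGSK3A_5 was above the controls and shGSK3A_6 below them without overlap. In U937 the ranges overlapped. The difference between the hairpins over the lines was 0.32 ± 0.06 (limma adjusted p = 0.000228). COX8A and COX7B, small complex IV subunits, also differed, COX8A by -0.19 ± 0.04 (adjusted p = 0.00172) and COX7B by 0.18 ± 0.03 (adjusted p = 0.000204). NDUFC2, the partner of NDUFC1 in the membrane arm, was lower with shGSK3A_5 than with shGSK3A_6, by -0.12 ± 0.04 (adjusted p = 0.0363), the opposite order to NDUFC1.

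In all, 9 of 53 genes differed between the GSK3A hairpins (16.8% of all genes), 7 with higher values for shGSK3A_5. Against control, 13 genes passed with shGSK3A_5 (9 higher, 4 lower; 22.1% of all genes) and 8 with shGSK3A_6 (3 higher, 5 lower; 16.7%). These contrasts share the control arrays. Side by side, the changes with shGSK3A_5 and shGSK3A_6 were 0.18 and 0.19 for NDUFB1, 0.21 and 0.19 for NDUFA3, -0.16 and -0.05 for SDHA, and -0.13 and 0.06 for COX8A. With the plate column block 19 passed for shGSK3A_5 (33.4% of all genes), 22 for shGSK3A_6 (29.0%) and 18 for the difference between them (29.4%).

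**Figure D3:**
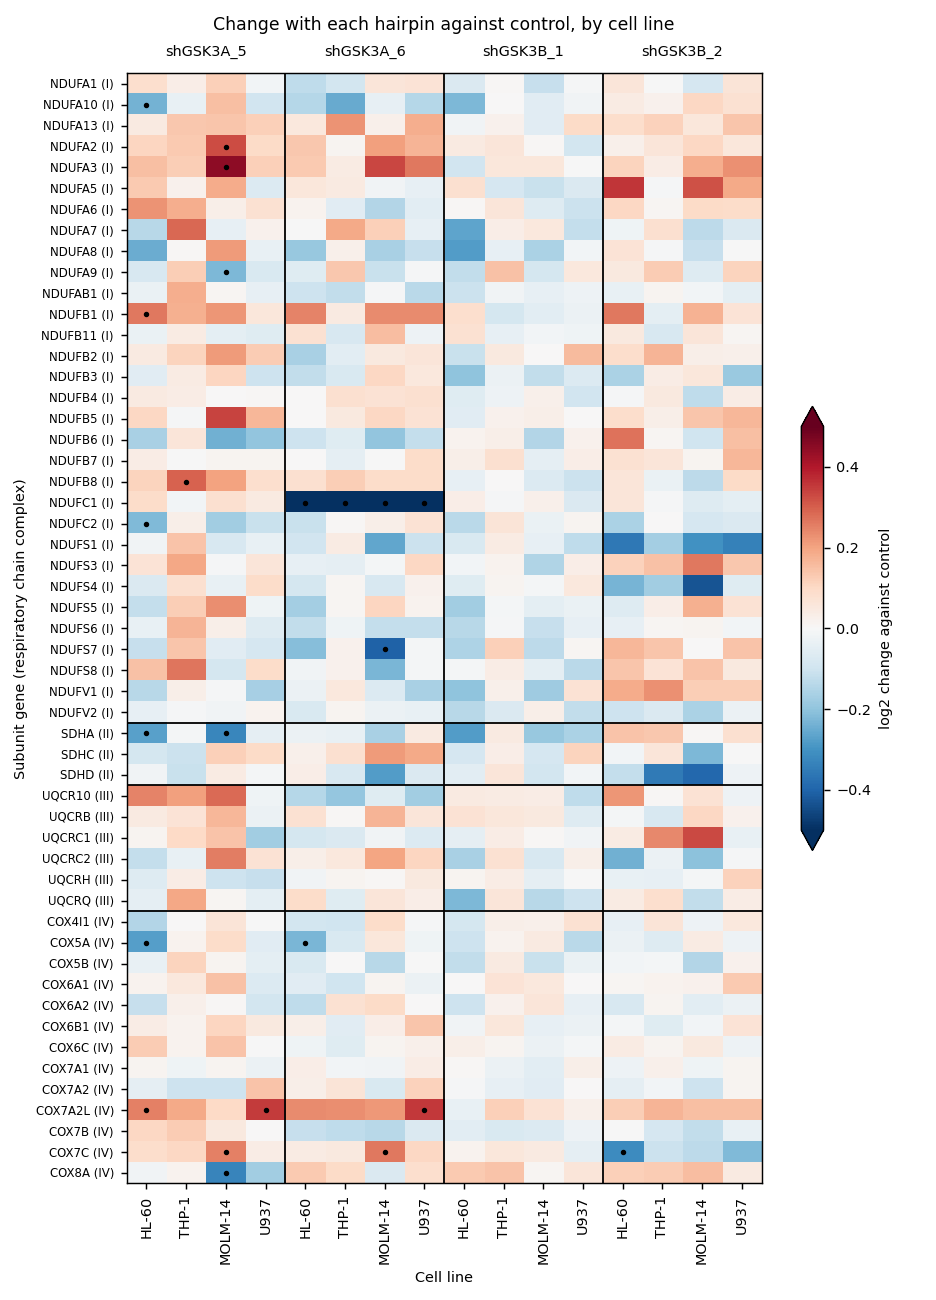
Change of each of the 53 subunit genes against control (colour, log2, on a scale from -0.5 to 0.5 at which larger values share the end colours) for each hairpin and cell line, with genes grouped by complex. Dots mark changes that passed the test in limma; each column compares 2 hairpin arrays with 3 control arrays. The 4 dark cells of NDUFC1 belong to shGSK3A_6, and COX7A2L is above 0 with both GSK3A hairpins in each line.

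By line, the GSK3A hairpins called 10 subunit genes in MOLM-14 (15.9% of all genes), 4 in HL-60 (9.02%), 2 in U937 (6.72%) and 1 in THP-1 (2.01%). NDUFC1 was among them in every line, and in THP-1 it was the only one. HL-60 added COX5A, COX7A2L and NDUFB1. MOLM-14 added COX7C, NDUFA2, NDUFA3 and NDUFB1, which rose, and COX8A, NDUFA9, NDUFB6, NDUFS7 and SDHA, which fell. U937 added COX7A2L. With the plate columns as a block the counts were 19 in MOLM-14 (27.9% of all genes), 10 in HL-60 (19.9%), 5 in U937 (16%) and 5 in THP-1 (7.48%), so there NDUFC1 was not the only one in THP-1. COX5A, a matrix-side subunit of complex IV, was the only gene of the 53 whose GSK3A change differed between lines (moderated F-test of limma, adjusted p = 0.00878; 7.83% of all genes passed). That count rests on the settings: over both targets, 0 genes had a change that differed between lines with a pseudocount of 1 or the random block, against 9 with the plate column block and 7 with the replicate block. In HL-60 it read 2725, 2795 and 2896 on control arrays and 2175 to 2450 with the GSK3A hairpins, a fall of 0.25 ± 0.05 without overlap. The THP-1 control arrays held 2547 to 2709 and the GSK3A hairpin arrays 2431 to 2721, those of MOLM-14 2942 to 3257 and 2982 to 3302, and those of U937 4032 to 4390 and 3819 to 4369, so these lines overlapped.

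With the GSK3B hairpins, few subunit genes passed. Over the lines 2 of 53 fell and 0 rose, where 3.32% of all genes passed (1.78% higher and 1.55% lower), and the median change of the 53 genes was -0.0058 (0.0032 for all genes). Both were core subunits of the peripheral arm of complex I. NDUFS1, the largest subunit, which holds several iron-sulfur clusters, fell by 0.17 ± 0.04 on the log2 scale (limma adjusted p = 0.0288), and NDUFV2 by 0.08 ± 0.02 (adjusted p = 0.0405). Leaving out 1 of the 44 arrays ended the call of NDUFS1 in 8 cases and that of NDUFV2 in 18. No gene of the 53 had a GSK3B change that differed between lines by the F-test of limma (0.214% of all genes did; 1 gene had an unadjusted p under 0.05). With the plate columns as a block 8 passed, 2 higher and 6 lower (10.1% of all genes), with the random block 0, and within either set of columns alone 0, where 4 (columns 1 to 6) and 5 (columns 7 to 11) had an unadjusted p under 0.05. The shares of all genes for the random block and the single sets of columns are not given here. The calls of NDUFS1 and NDUFV2 were both lost without HL-60 and without THP-1. That of NDUFS1 was also lost without MOLM-14 (-0.17) and that of NDUFV2 without U937 (-0.09). Within single lines no gene of the 53 passed in any of the 4 lines with limma, where 1.47% of all genes did in MOLM-14, 0.995% in HL-60, 0.214% in U937 and 0.0493% in THP-1. In that order there were 3, 7, 1 and 2 at an unadjusted p under 0.05, and the plate column block called 1 (6.77% of all genes), 4 (3.99%), 0 (1.79%) and 0 (0.271%).

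The fall of NDUFS1 was that of shGSK3B_2. In HL-60 it read 416, 423 and 436 on control arrays and 310 and 349 with shGSK3B_2. THP-1 had 256, 269 and 283 against 235 and 238. MOLM-14 had 386, 388 and 391 against 275 and 337, and U937 324, 362 and 368 against 249 and 305. The shGSK3B_2 arrays were below the controls in every line. With shGSK3B_1 it overlapped the controls in THP-1 and U937 and lay just below them in HL-60, at 393 and 415, and in MOLM-14, at 368 and 382. Over the lines the change was -0.29 ± 0.05 with shGSK3B_2 (limma adjusted p = 0.000617) and -0.05 with shGSK3B_1, and the hairpins differed by 0.24 ± 0.06 (adjusted p = 0.00606), a call lost without HL-60 (0.23). With the GSK3A hairpins NDUFS1 did not pass.

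The same hairpin, shGSK3B_2, moved 6 of the 53 genes (6.27% of all genes), while shGSK3B_1 moved 1, SDHA, by -0.15 ± 0.04 (4.64% of all genes). COX7C fell by 0.19 ± 0.04 with shGSK3B_2 (limma adjusted p = 0.00388), from 2079, 2170 and 2349 on control arrays to 1696 and 1780 in HL-60, and from 1902, 1949 and 2111 to 1630 and 1753 in U937, in neither case with overlap. NDUFA5, an accessory subunit of the peripheral arm, rose by 0.21 ± 0.05 (adjusted p = 0.00719). It read 542, 583 and 586 on HL-60 control arrays and 711 and 767 with shGSK3B_2, but in THP-1 543 to 635 against 575 and 589. SDHD fell by 0.22 ± 0.06 (adjusted p = 0.0299), with 331, 360 and 360 on THP-1 control arrays and 250 and 295 with shGSK3B_2. In all, 7 genes differed between the GSK3B hairpins (11% of all genes), among them SDHA (-0.24 ± 0.04), NDUFA5 (-0.26 ± 0.06) and the NADH-binding subunit NDUFV1 (-0.24 ± 0.06), each lower with shGSK3B_1. With the plate column block the counts were 18 for shGSK3B_2 (16% of all genes), 7 for shGSK3B_1 (12.9%) and 23 for their difference (22.5%).

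**Figure D4:**
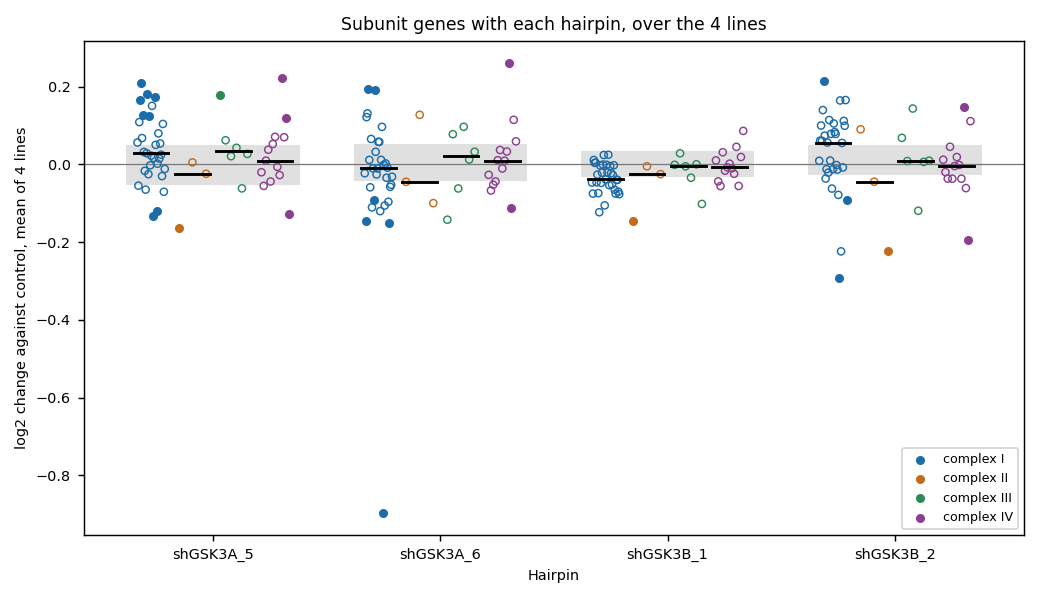
Change of each subunit gene over the 4 lines with each hairpin (y axis, log2; 8 hairpin arrays and 12 control arrays per contrast), by complex. Filled points passed the test in limma, black bars are medians of a complex and the grey band runs from the lower to the upper quartile of all 12165 genes. Most points lie close to 0, and NDUFC1 with shGSK3A_6 is far below the rest at -0.90.

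The GSK3A and GSK3B hairpins were also compared directly, without the control arrays. Of 53 genes 15 differed, 10 higher and 5 lower with the GSK3A hairpins (21.8% of all genes), and 25 did with the plate column block (33.8%). With the random block 8 differed and without HL-60 6, and for these fits the shares of all genes are not given here. Besides NDUFC1 (-0.41 ± 0.04), the difference with the smallest adjusted p was that of COX7C, at 0.20 ± 0.03 (limma adjusted p = 2.87e-05). On MOLM-14 arrays COX7C read 2795 to 2921 with the GSK3A hairpins and 2158 to 2644 with the GSK3B hairpins, without overlap. NDUFB8 was higher by 0.16 ± 0.03 and UQCRC2, a core protein of complex III, by 0.15 ± 0.04, with 1690 to 1899 against 1258 to 1526 in MOLM-14, also without overlap. COX8A was lower by -0.13 ± 0.03, NDUFB6 by -0.16 ± 0.03 and the core subunit NDUFS7 by -0.13 ± 0.04. NDUFB1, NDUFB4, NDUFA2 and NDUFV2 were higher by 0.06 to 0.14. Of the 15 calls, 5 held without any single line: those of NDUFC1, COX7C, NDUFB8, COX7A2L and NDUFB1. Without HL-60 those of UQCRC2 (0.14), NDUFB6 (-0.12), NDUFS7 (-0.11), NDUFA2 (0.12), NDUFB4 (0.07) and NDUFV2 (0.06) were lost. So were those of NDUFA10 (-0.09), NDUFA7 (0.12) and NDUFS1 (0.11). Without MOLM-14 the calls of COX8A (-0.08), UQCRC2 (0.07), NDUFA2 (0.08) and NDUFB4 (0.06) were lost. NDUFA7, NDUFB4 and NDUFV2 also did not pass with a pseudocount of 1 or median scaling.

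The sets of plate columns differed for subunit genes in 2 of the 4 lines. Between columns 7 to 11 and 1 to 6, no gene of the 53 differed in HL-60 (0.00822% of all genes) or THP-1 (0%) in limma, and 3 and 1 had an unadjusted p under 0.05. In MOLM-14 33 did, 19 higher and 14 lower (34.2% of all genes), from -0.32 for SDHC to 0.52 for UQCRC1, and in U937 30, 17 higher and 13 lower (36.0%), from -0.35 for NDUFB3 to 0.45 for NDUFB5. UQCRC1, a core protein of complex III, read 639 and 712 on the MOLM-14 control arrays of columns 1 to 6 and 949 on that of columns 7 to 11. Each hairpin has 1 array in each set of columns in a line, whereas the controls have 2 and 1. Every construct also lay in the same columns in each line. A hairpin and its own columns therefore cannot be told apart, neither by the block nor by the repeat over lines. What the sets of columns stand for besides plate position is not given in the labels, and their part in the hairpin changes was tested only through the block and the fits within each set.

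**Figure D5:**
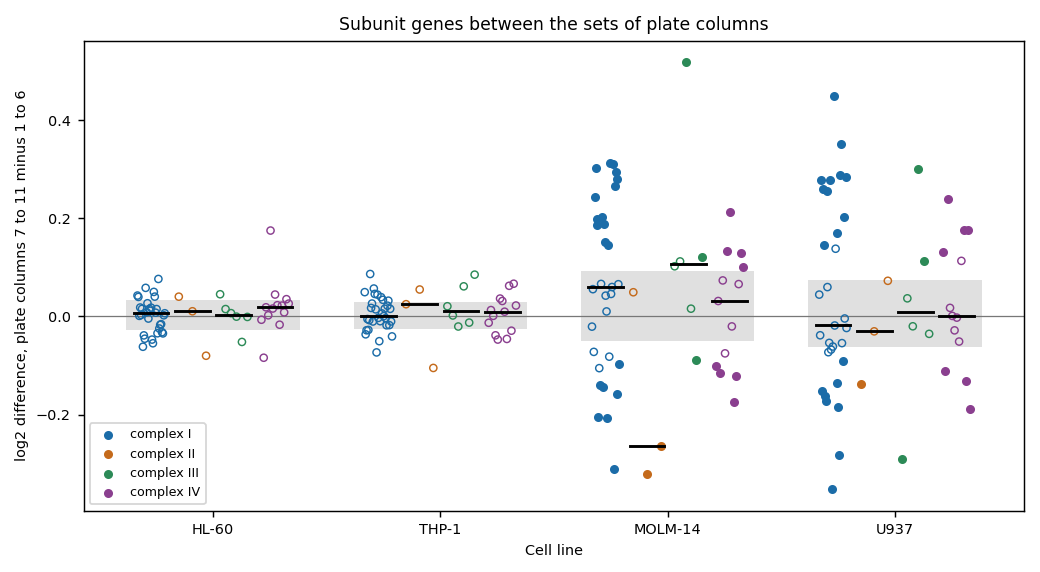
Difference of each subunit gene between plate columns 7 to 11 and 1 to 6 within a line (y axis, log2; 5 arrays against 6), by line and complex. Filled points passed the test in limma, black bars are medians of a complex and the grey band runs from the lower to the upper quartile of all genes. No point is filled in HL-60 and THP-1, against 33 in MOLM-14 and 30 in U937.

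Other mitochondrial genes were counted from lists written from general knowledge. With the GSK3A hairpins, where 10.8% of all genes rose and 10.2% fell, 1 of 18 ATP synthase genes rose and 2 fell, 0 of 10 complex I assembly factors rose and 2 fell, and 2 of 19 assembly factors of complexes II to IV rose and 2 fell. Here the falls included NDUFAF1 (-0.18 ± 0.03), an assembly factor of complex I, and SCO2 (-0.24 ± 0.05), which delivers copper to complex IV, and SURF1, another complex IV assembly factor, rose (0.28 ± 0.08). Of 13 genes for cytochrome c, cytochrome c1 and ubiquinone synthesis 5 fell and 0 rose, among them COQ8A (-0.34 ± 0.03) and cytochrome c itself, CYCS (-0.13 ± 0.03), while CYC1 did not pass. Of 15 genes of pyruvate dehydrogenase and the citric acid cycle 6 fell, led by SUCLG2 (-0.45 ± 0.04), and 2 rose.

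Of 15 regulators of mitochondrial biogenesis 8 fell and 0 rose, with a median of -0.11. They included TFB1M (-0.26 ± 0.03), TWNK (-0.32 ± 0.05) and POLRMT (-0.30 ± 0.05), which act in the upkeep and transcription of mitochondrial DNA, and the mitochondrial transcription factor TFAM (-0.11 ± 0.04). NRF1 and PPARGC1A did not pass. Of 17 import proteins and chaperones 1 rose and 4 fell, and of 50 mitochondrial ribosomal proteins 1 rose and 16 fell, led by MRPL46 (-0.48 ± 0.04), with a median of -0.08. In THP-1 alone the medians were 0.03 for the ribosomal proteins, 0.09 for the import proteins and chaperones and -0.06 for the regulators. The falls there were 1, 0 and 0, in a line where 2.01% of all genes were called. In the other lines the medians lay between -0.21 and -0.11, and 6.72% to 15.9% of all genes were called. With the plate column block, where 16.5% of all genes rose and 16.7% fell, 28 ribosomal proteins, 10 import proteins and chaperones and 8 regulators fell, and 3, 2 and 0 rose. The same block gave 5 ATP synthase genes that rose and 3 that fell, and 3 assembly factors of complexes II to IV that rose and 5 that fell. Whether the lines differ in these lists was not tested, and no test compared the lists with the subunits of complexes I to IV. With the GSK3B hairpins no list had more than 3 called genes, which were MRPL15 (-0.20 ± 0.02), MRPL34 (0.23 ± 0.03) and MRPL9 (-0.14 ± 0.02) among the ribosomal proteins, and CYCS fell by 0.15 ± 0.03.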

How the data were processed

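RNA from 44 cultures was measured on 1-colour oligonucleotide arrays, 1 per culture. The authors deposited a table of linear intensity per probe set. The submitters' processing notes name MAS5 and RMA; which of them gave the table is not stated in the sources at hand, nor is a version. Of 22277 probe sets, 19724 had 1 gene symbol in the platform annotation, 568 several, 1923 none and 62 were array controls; the single-gene ones stand for 12165 genes, each by its brightest probe set.

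Intensities were turned into log2(intensity + 16), which understates changes of dim genes, and quantile normalized. Means of the 20 groups of line and construct were fitted in limma 3.58.1 (R 4.3.3), with Benjamini-Hochberg adjustment over all genes and a threshold of 0.05. The fit was tested on simulated data with independent noise on each array and no plate column difference. That test therefore does not cover the shared deviations described next. In MOLM-14 and U937 the hairpin arrays of 1 replicate number deviated together (correlations of 0.56 to 0.80), but control arrays followed the plate columns (0.59 to 0.82) and not their number (-0.06 to 0.06), so the plate columns and not the number were taken as the block.

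Genes named are those with the smallest adjusted p. For a target these were up to 8 in each direction, and for an F-test 5. For a line, hairpin or list of other genes they were up to 3. Fixed isoforms, regulators, ends of ranges and calls lost under alternatives were named as well. The members and lists were chosen with earlier results of these data known. Alternatives were another pseudocount, median scaling, the genes above the median level, means over probe sets, blocks, single sets of columns, and leaving out lines and arrays. The plate column comparison and the values without normalization were added after seeing the data. Sequences are RefSeq's, matched by symbol.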

Additional observations from a re-analysis of the deposited data

Results flagged for a closer look

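Of 104 groups of 4 hairpin arrays, 13 genes in 4 lines and both targets, 7 held an array whose gap to the nearest other array, as a share of the group's range, passed Dixon's 95% critical value. For 4 like arrays chance alone gives about 1 in 20 groups. Each group here joins 2 hairpins and both sets of plate columns, so that rate need not hold. For the complex I genes, the low arrays were shGSK3A_6 replicate 1 for NDUFB1 in THP-1 (0.944) and for NDUFA2 in MOLM-14 (0.873), and shGSK3B_1 replicate 1 for NDUFB8 in U937 (0.921). The high arrays were shGSK3A_5 replicate 1 for NDUFA13 in MOLM-14 (0.836) and for NDUFV2 in HL-60 (0.858), and shGSK3B_2 replicate 2 for NDUFV2 in HL-60 (1). The last value arises because the other 3 arrays, at 1425, 1441 and 1447, took the same value on quantile normalization, and the high one read 1516. For COX7A2L in THP-1 the high array was shGSK3B_2 replicate 2 (0.852).

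COX5A was the only one of the 53 genes whose GSK3A change differed between lines, with an adjusted p of 0.00878 in the moderated F-test of limma; no gene passed with a pseudocount of 1 or the random block. Its changes were -0.25 in HL-60, -0.04 in U937, -0.03 in THP-1 and 0.07 in MOLM-14.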

How the results depend on the processing

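Of 392 values of named genes under alternatives, 269 kept direction and call, 122 kept direction and lost the call, and 1 reversed: NDUFB6 with the GSK3A hairpins, at 0.0163 with the mean of its probe sets. COX7A2L with both GSK3A hairpins ran from 0.20 to 0.27 over 14 alternatives and lost its call within plate columns 7 to 11 alone.

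Counts of the 53 genes that moved by over 1.5 times were as follows, with some that moved less. The shares of all genes are not given beside them. The cause was not tested. For the GSK3B hairpins over the lines (2), the count was 1 with a pseudocount of 1, median scaling, no normalization, the genes above the median level or without MOLM-14, 0 without HL-60 or THP-1, and 4 with the mean of all probe sets, which also gave 1 by line (0). A pseudocount of 1 left 0 genes whose change differed between lines (1). Without HL-60 the counts were 4 for GSK3A (11) and 6 for GSK3A against GSK3B (15).

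With the replicate block (labelled number within lines) they were 15 for GSK3A, 6 for GSK3B, 31 for GSK3A by line (17), 4 for GSK3B by line, 136 over all hairpin contrasts (51), 31 for hairpin differences (16) and 7 for changes that differ between lines. With the plate column block they were 17, 8, 39, 5, 155, 41 and 9 in that order, and 25 for GSK3A against GSK3B. The random block of line and construct (correlation 0.15) gave 6 for GSK3A, 0 for GSK3B, 8 between them, 2 for GSK3A by line and 0 for differences between lines. Plate columns 1 to 6 alone gave 6, 0, 3, 3 and 0, and columns 7 to 11 alone 0, 0, 2, 0 and 0, with fewer arrays. Leaving out 1 array at a time gave 9 to 14 for GSK3A, 0 to 4 for GSK3B, 11 to 17 between them, 9 to 20 and 0 to 3 by line, 37 to 75 over hairpin contrasts, 13 to 22 for hairpin differences, 50 to 51 between lines in controls and 1 to 3 for changes that differ between lines.

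Signal over background limits COX7A1 and COX6A2, and 2 arrays per hairpin and line limit every change within a line.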
